A study of Mus musculus with 18 samples.

Results

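The comparison asked how far the response of macrophages to heme depended on NRF2. For each gene it took the heme effect in Nrf2-/- cells (heme and LPS minus LPS) and subtracted the same heme effect in Nrf2+/+ cells. This difference of differences is called the interaction here. It used 15 of the 18 arrays of the series and was computed for 22485 genes. A negative interaction means that heme raised a gene less, or lowered it more, in the knockout than in wild type. A positive value means the opposite. The labels, not the measured values, chose the arrays.

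The cells were bone marrow derived macrophages of mice aged 8 to 10 weeks, grown for 7 days in 10 ng/ml M-CSF, the growth factor that turns marrow cells into macrophages. The 4 groups were Nrf2+/+ cells under LPS (3 arrays, lettered a to c), Nrf2+/+ cells under heme-albumin and LPS (3 arrays, a to c), Nrf2-/- cells under LPS (4 arrays, a to d), and Nrf2-/- cells under heme-albumin and LPS (5 arrays, a to e). The heme groups had 200 µM heme-albumin for 4 h and then LPS, the endotoxin of Gram-negative bacteria, at 10 ng/ml for 4 h. The labels of the LPS groups name 4 h of LPS and no albumin, although the treatment protocol also speaks of albumin alone. Albumin and time in culture can therefore differ from the heme groups, by the labels in both genotypes. The knockout had no group without LPS, and the sources used here do not describe the allele or its strain. Each array set a sample against a common untreated reference, and all values are log2 ratios to that reference, so 1 log2 unit is a 2-fold difference. The design text calls the replicates independent biological samples.

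NRF2, the protein of the gene Nfe2l2, is a transcription factor that KEAP1 marks for destruction in unstressed cells. Electrophiles, oxidants and heme let it escape, enter the nucleus and bind antioxidant response elements together with a small MAF protein. Its classical targets make glutathione, reduce quinones and peroxides, and export conjugates. Several of these genes, first of all Hmox1, are also held down by the repressor BACH1, which heme itself removes from DNA, so that heme can act on such genes by more than 1 route.

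The targeted gene Nfe2l2 had a value of exactly 0 on each of the 9 knockout arrays, and the position of its probe relative to the deleted part was not analysed here. On the wild-type arrays it stood at -0.59, -0.45 and 0.16 under LPS and at 0.13, 1.0 and 0.80 under heme and LPS. Values of exactly 0 made up 17.9% to 48.76% of the features per array, with the largest shares (44.35% to 48.76%) on the arrays lettered a. Such a 0 can mean either a ratio of 1 or a value that was not estimated, and the files do not say which. Arrays of a group correlated at 0.64 to 0.89. Because the values are ratios to macrophage RNA, they do not give the level of a macrophage marker, and fewer cells of a type cannot be told apart from less RNA per cell. Of 79 measured markers of other cells (neutrophils, lymphocytes, erythroid, dendritic, mast and stromal cells) limma called 0 in the interaction at the threshold used below. At an unadjusted p under 0.05 there were 3, beside 1779 of all 22485 genes. Nearest to a call was the stromal marker Kdr, with heme effects of -5.11 in wild type and -1.87 in the knockout (interaction 3.24, limma adjusted p = 0.06). With array weights, centring, a filter on zeros, the median over probes, the replicate block or zeros as missing, 1 stromal marker was called higher. None was with quantile normalization, without the albumin arrays or without the arrays lettered a. The fits without 1 array called 0 or 1. Without the arrays lettered a 1 B cell marker was called higher. The mean of the 12 stromal markers was 0.25 to 1.18 on the knockout heme arrays and -0.32 to 0.14 on the wild-type heme arrays, against 0.21 to 1.13 and -0.38 to 0.83 under LPS. The part of these cells in the interaction was not tested.

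A gene was called where the limma adjusted p (Benjamini-Hochberg over all genes) was under 0.05. The interaction was called for 213 genes (0.947% of those tested), of which 159 (0.707%) were lower and 54 (0.24%) higher in the knockout. In the 159 genes heme had a median effect of 1.83 log2 units in wild type and 0.28 in the knockout, and the median interaction was -1.63. In the 54 genes the median effect was -1.96 in wild type and -0.49 in the knockout, and the median interaction was 1.68. Thus the median heme effect lay nearer to 0 in the knockout in either direction. These genes were chosen by the interaction, which inflates the difference between the 2 medians, so it is no separate evidence. The median interaction over all genes was 0, with 10819 negative and 10937 positive values.

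Under LPS alone the median difference between knockout and wild type was 0.00 in the 159 genes and 0.03 in the 54, with ranges of -2.49 to 1.41 and -2.56 to 0.58. It was at least 1 log2 unit in 3 of the 159 (Cxcl5 at -2.49, Fam214a at 1.41 and Rnf183 at 1.20) and in 2 of the 54 (Prm1 and Gm6377, the latter at -1.34), all named here after their values were seen, and it enters the interaction of each. Under heme and LPS the median difference was -1.54 and 1.55. These genotype differences use the same arrays as the interaction and are given as its components. Over all genes, limma called 1 gene between the genotypes under LPS (0.00445%; 557 genes had an unadjusted p under 0.05) and 1186 under heme and LPS (5.27%). The 1 gene was Prm1, which encodes a protamine of sperm chromatin. It was 2.56 log2 units lower in the knockout under LPS, and so its interaction of 2.21 rests on the difference between the groups without heme.

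**Figure D1:**
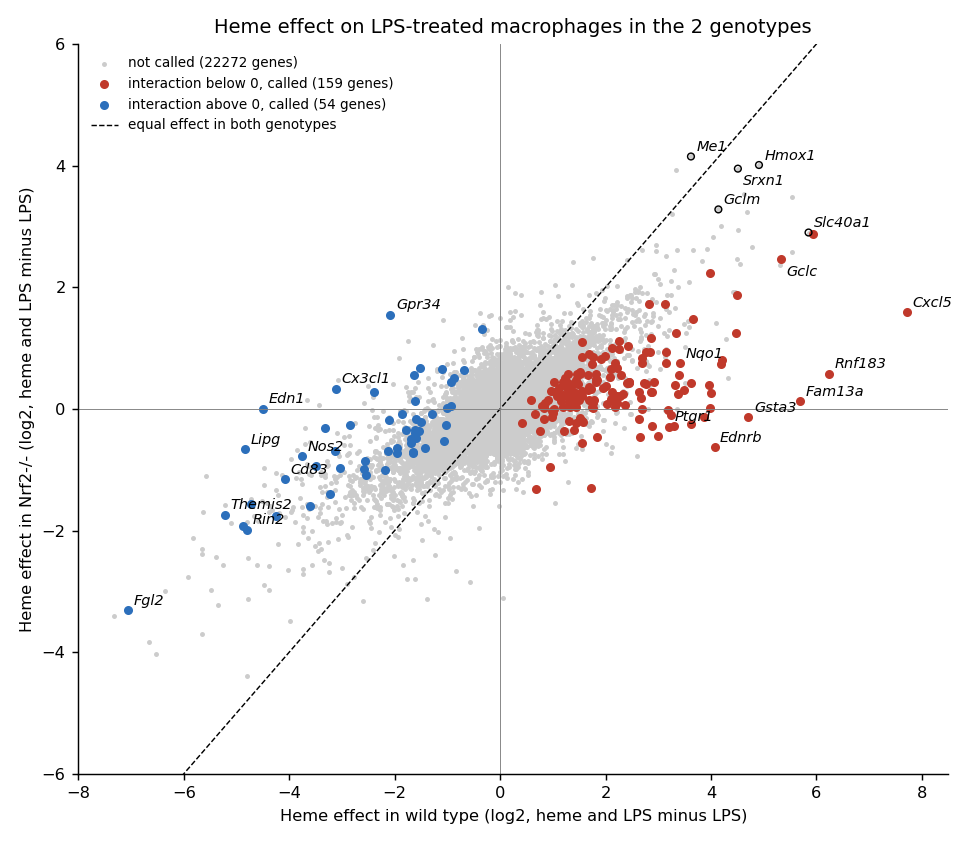
The heme effect in wild type (horizontal, log2) against the heme effect in the knockout (vertical, log2) is plotted for 22485 genes; red points are the 159 genes called lower, blue points the 54 called higher, open circles named genes that were not called, and the dashed line marks equal effects. Most of the called genes lie close to the horizontal line of no heme effect in the knockout, while Hmox1, Srxn1, Gclm and Me1 lie near the dashed line.

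The heme effects of the 2 genotypes share no arrays and can be set side by side. Heme changed 3303 genes in wild type (14.7%) and 1523 in the knockout (6.77%). It raised 1876 genes in wild type (8.34%) and 922 in the knockout (4.1%), and 781 were raised in both, which is 41.6% of the wild-type list and 84.7% of the knockout list. It lowered 1427 genes in wild type (6.35%) and 601 in the knockout (2.67%), with 498 in both, or 34.9% and 82.9% of the lists. The 276 genes that heme raised at least 4-fold in wild type had a median effect of 2.65 there and of 1.13 in the knockout. Choosing genes by their size in a group inflates the value in that group, so the reverse choice is also given. The 43 genes raised at least 4-fold in the knockout had a median of 2.52 there and of 3.59 in wild type. Among genes lowered at least 4-fold, the 359 chosen in wild type had medians of -2.72 in wild type and -1.25 in the knockout, and the 55 chosen in the knockout had -2.56 in the knockout and -3.40 in wild type. With either choice, the median effect was larger in wild type.

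Rnf183, Fam13a, Gsta3, Ednrb, Lypd6b, Slc22a23, Tbcel and Pcx had the most negative interactions among the 72 genes called lower that stayed called without each of the 15 arrays in turn and without all arrays lettered a. Rnf183, which encodes a RING-type ubiquitin ligase, stood at 0.00, -2.17 and -0.58 on the wild-type LPS arrays and at 5.35, 4.90 and 5.70 under heme. On the knockout arrays it stood at 0.00, 0.00, 0.45 and 0.68 under LPS and at 0.05, 1.46, -0.19, 1.90 and 1.09 under heme. All 3 wild-type heme arrays lay above all other arrays, and the knockout groups overlapped. Its interaction was -5.66 ± 0.73 (SE, limma adjusted p = 0.00142). Fam13a had an interaction of -5.56 ± 0.89 (limma adjusted p = 0.00656). Heme raised it in wild type by 5.69, and in the knockout the difference was 0.13.

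Gsta3, an alpha class glutathione transferase, had the most negative interaction of the antioxidant genes. It stood at -0.13, 0.17 and -0.23 in wild type under LPS and at 5.55, 3.92 and 4.47 under heme. In the knockout it stood at 0.00, -0.22, 0.06 and -0.88 under LPS and at 0.00, 0.00, -0.15, -1.39 and -0.45 under heme. The wild-type heme arrays stood apart and the other groups overlapped, with an interaction of -4.84 ± 0.57 (limma adjusted p = 0.000813). The endothelin B receptor gene Ednrb rose by 4.07 in wild type and differed by -0.63 in the knockout (interaction -4.70 ± 0.60, limma adjusted p = 0.00137). Lypd6b, of the Ly6 family, was measured by 10 probes and stood at 2.54, 4.65 and 4.72 on the wild-type heme arrays against -0.07 to 0.00 on the knockout heme arrays. Slc22a23, a solute carrier gene of the organic ion transporter family, had 1.45, 3.64 and 4.29 against -0.48 to 0.00. In these last genes the wild-type array a was the lowest of its group but still above every knockout heme array.

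Pyruvate carboxylase, which feeds carbon into the citric acid cycle and into glucose synthesis, had a tight response. Its gene Pcx stood at -0.57, -0.14 and -0.39 under LPS and at 2.93, 2.91 and 2.97 under heme in wild type. Its knockout values were -0.70, -0.21, -0.40 and -0.33 under LPS and -1.21, -0.54, -0.23, -0.85 and -0.63 under heme. Only the wild-type heme group moved away from the rest, and the interaction was -3.58 ± 0.25 (limma adjusted p = 6.22e-06). Tbcel, a relative of the tubulin chaperone E, rose by 4.00 in wild type and differed by 0.26 in the knockout (interaction -3.74 ± 0.33, limma adjusted p = 5.76e-05).

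**Figure D2:**
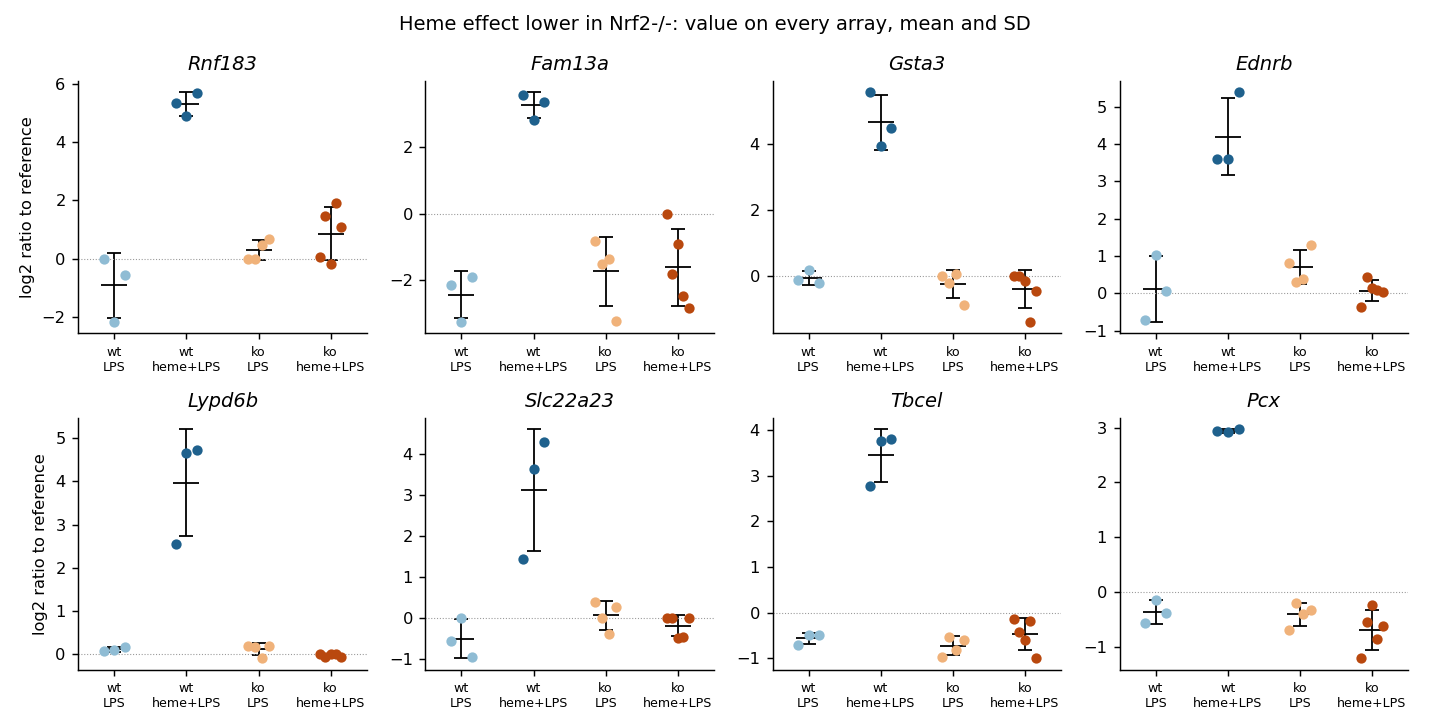
Log2 ratios to the reference are shown on every array (points) with mean and SD (bars) for the 8 genes with the most negative interactions among those called in every fit without 1 array; wt is wild type and ko is Nrf2-/-. In each gene the wild-type heme arrays lie above all knockout arrays, for example 2.91 to 2.97 for Pcx against -1.21 to -0.21.

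Some large values were less certain. Cxcl5, a neutrophil-attracting chemokine, had the most negative interaction of all called genes, -6.11 ± 1.28 (limma adjusted p = 0.0375). It stood at 0.00, 2.86 and 4.62 in wild type under LPS and at 8.73, 11.11 and 10.77 under heme. It was listed at exactly 0 on all 4 knockout LPS arrays and stood at 0.00 to 3.01 under heme. The wild-type LPS arrays thus differed widely, and the size of the knockout effect is uncertain because its baseline is listed at 0. The call held in 6 of 15 fits without 1 array. Rnf207 (-3.97) lost its call without the arrays lettered a (limma adjusted p = 0.0567), and Esam, an adhesion molecule gene (-3.58), kept it in 4 of 15 such fits.

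The antioxidant and detoxification genes that NRF2 is known for were read from 6 lists with 91 measured genes. Of these 16 were called lower in the knockout (17.6%, beside 0.707% of all genes) and 0 higher, and the median interaction was -0.51, beside 0 over all genes. Of all 91 interactions 67 were negative and 24 positive, and at an unadjusted p under 0.05 there were 36 lower and 2 higher, beside 1045 lower and 734 higher over all genes. Heme raised 46 of the 91 genes in wild type and 22 in the knockout, and 21 were raised in both. The lists were put together from known NRF2 biology, so their direction is no independent evidence.

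Glutathione is made in 2 steps. The first is carried out by glutamate-cysteine ligase, with a catalytic subunit (Gclc) and a modifier subunit (Gclm), and the second by glutathione synthetase (Gss). Of 14 genes of glutathione synthesis and recycling, 2 were called lower and 0 higher, with a median of -0.62. Gss stood at 0.06, 0.11 and -0.05 in wild type under LPS and at 3.12, 2.55 and 3.03 under heme. The knockout arrays stood at -0.24, -0.28, -0.31 and 0.00 under LPS and at 0.07, -0.22, 0.26, 0.24 and 0.01 under heme. Its rise in wild type of 2.86 stood beside a difference of 0.28 in the knockout (interaction -2.58 ± 0.19, limma adjusted p = 7.8e-06).

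Gclc kept part of its response. It stood at -1.73, -0.53 and -0.87 in wild type under LPS and at 4.95, 3.35 and 4.52 under heme. In the knockout it stood at -1.86, -0.56, -1.19 and -2.13 under LPS and at 1.72, 1.15, 1.11, 0.94 and 0.24 under heme, so that the heme arrays lay above the LPS arrays in both genotypes. The rise was 5.32 in wild type and 2.46 in the knockout, both called, and the interaction of -2.85 ± 0.62 was near the threshold (limma adjusted p = 0.043). That call held in 4 of 15 fits without 1 array and was lost without the arrays lettered a (limma adjusted p = 0.12).

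Gclm, the modifier subunit, was not called. It rose by 4.14 in wild type and by 3.28 in the knockout, with an interaction of -0.87 (95% interval -1.98 to 0.25). Slc7a11, the cystine importer that supplies the cysteine, had an interaction of -2.96 ± 1.81 and was not called. Its arrays scattered widely, from 0.00 to 4.59 in wild type under LPS and from 1.34 to 5.77 in the knockout under heme.

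The thioredoxin and peroxiredoxin list had 1 of 11 genes called lower and 0 higher, with a median of -0.20. The called gene was Prdx1, a peroxiredoxin that removes hydrogen peroxide, which rose by 2.87 in wild type and by 1.17 in the knockout (interaction -1.70 ± 0.34, limma adjusted p = 0.0294, held in 4 of 15 fits without 1 array). Thioredoxin reductase Txnrd1 rose by 2.87 and 1.43, and its interaction was -1.43 (95% interval -2.38 to -0.48; limma adjusted p = 0.222). Sulfiredoxin Srxn1, which repairs overoxidized peroxiredoxins, stood lower in the knockout under LPS, but limma did not call this difference. It stood at -1.02, 0.02 and -0.03 in wild type under LPS and at 4.70, 3.73 and 4.07 under heme. The knockout arrays stood at -2.03, -1.92, -1.68 and -2.12 under LPS and at 2.93, 1.81, 1.11, 2.15 and 2.07 under heme. The knockout arrays were lower in each condition. Heme raised the gene by 4.51 and 3.95, with an interaction of -0.56 (95% interval -1.61 to 0.49).

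Of 12 genes for enzymes that make NADPH, the electron source of these systems, 1 was called lower and 0 higher (median -0.12). Transaldolase Taldo1, of the pentose phosphate pathway, rose by 2.13 in wild type and differed by 0.28 in the knockout (interaction -1.86 ± 0.27, limma adjusted p = 0.00319). Malic enzyme Me1 had a positive value that was not called. It stood at 0.08, 0.28 and 0.09 in wild type under LPS and at 5.27, 3.07 and 2.99 under heme, and in the knockout at -0.23, 0.54, 0.35 and 0.01 and at 4.69, 3.94, 3.71, 4.81 and 4.44. The knockout heme arrays lay within the range of the wild-type heme arrays, and the interaction was 0.53 (95% interval -0.78 to 1.83), with its 3 probes between -0.15 and 1.12.

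Quinone and carbonyl detoxification had 3 of 14 genes called lower and 0 higher, with a median of -0.54. Ptgr1, a reductase of reactive alkenals that also inactivates leukotriene B4, had the smallest limma adjusted p of the named genes (5.42e-08). It stood at -0.25, -0.17 and -0.16 in wild type under LPS and at 3.04, 2.97 and 3.00 under heme. Its knockout values were -0.13, -0.23, -0.12 and -0.25 under LPS and -0.40, -0.07, -0.57, -0.75 and -0.55 under heme. The 3 wild-type heme arrays lay close together and far above all others (interaction -3.48 ± 0.16).

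Nqo1, the quinone reductase used most often as a readout of NRF2, stood at 3.57, 2.98 and 2.98 in wild type under heme and at 0.00, 1.15, 0.18, 0.71 and 0.27 in the knockout under heme. The groups did not overlap, and the interaction was -2.67 ± 0.41 (limma adjusted p = 0.00515). Akr1b8, an aldo-keto reductase measured by 10 probes, rose by 2.36 in wild type and differed by 0.07 in the knockout (interaction -2.29 ± 0.26, limma adjusted p = 0.000639). The aldehyde oxidase gene Aox1 (-3.14) and the carbonyl reductase gene Cbr3 (-1.96) had large negative values that were not called.

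Glutathione transferases join glutathione to electrophiles, and ABCC pumps carry the products out. In this list 7 of 24 genes were called lower and 0 higher, with a median of -0.78, the lowest median of the 29 lists. Besides Gsta3 these were Mgst2 (-3.02), Abcc4 (-2.68), Abcc1 (-1.54), Gstp1 (-1.29), Gstp2 (-1.11) and Abcc5 (-0.74). Of these, Mgst2, Gstp2 and Abcc5 (limma adjusted p = 0.0281, 0.0365 and 0.049) did not stay called in every fit without arrays. Without 1 array, 4 to 9 genes of the list were called lower. Abcc4 stood at 3.10, 1.75 and 2.00 in wild type under heme, and its knockout heme arrays lay between -0.94 and -0.04, overlapping the knockout LPS arrays. Mgst2, a microsomal transferase, stood at 2.20, 3.26 and 3.03 in wild type under heme and at 1.41, 0.25, -0.04, 0.19 and 0.53 in the knockout. Heme raised it in wild type by 1.72, and in the knockout the difference of -1.30 was not called. Gstp1 and Gstp2, like Gsta1 and Gsta2, are near copies of each other, so their probes may not tell them apart.

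Among 16 other stress genes linked to NRF2, 2 were called lower and 0 higher, with a median of -0.59. Cat, the catalase gene, stood at 1.13, 2.03 and 1.82 in wild type under heme and at -0.33, 0.46, -0.21, 0.23 and -0.17 in the knockout under heme. The interaction was -1.81 ± 0.31 (limma adjusted p = 0.0107). The glycine transporter gene Slc6a9 had an interaction of -2.39 ± 0.51 (limma adjusted p = 0.0427), which held in 3 of 15 fits without 1 array. Osgin1, an oxidative stress gene, rose by 4.62 and 3.54 and was not called (-1.08, 95% interval -2.20 to 0.03). Of 10 regulators of the pathway limma called 0, and 2 had an unadjusted p under 0.05, beside 1779 of all 22485 genes. Mafg, a small MAF partner of NRF2, was not called (-0.98, limma adjusted p = 0.166). The targeted gene Nfe2l2 is among these 10, with a value of -0.94 (limma adjusted p = 0.124, and 0.04 without the arrays lettered a). Because it was listed at exactly 0 on every knockout array, this value is only its wild-type heme effect with the sign reversed. It does not show whether the response of Nfe2l2 depends on NRF2.

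**Figure D3:**
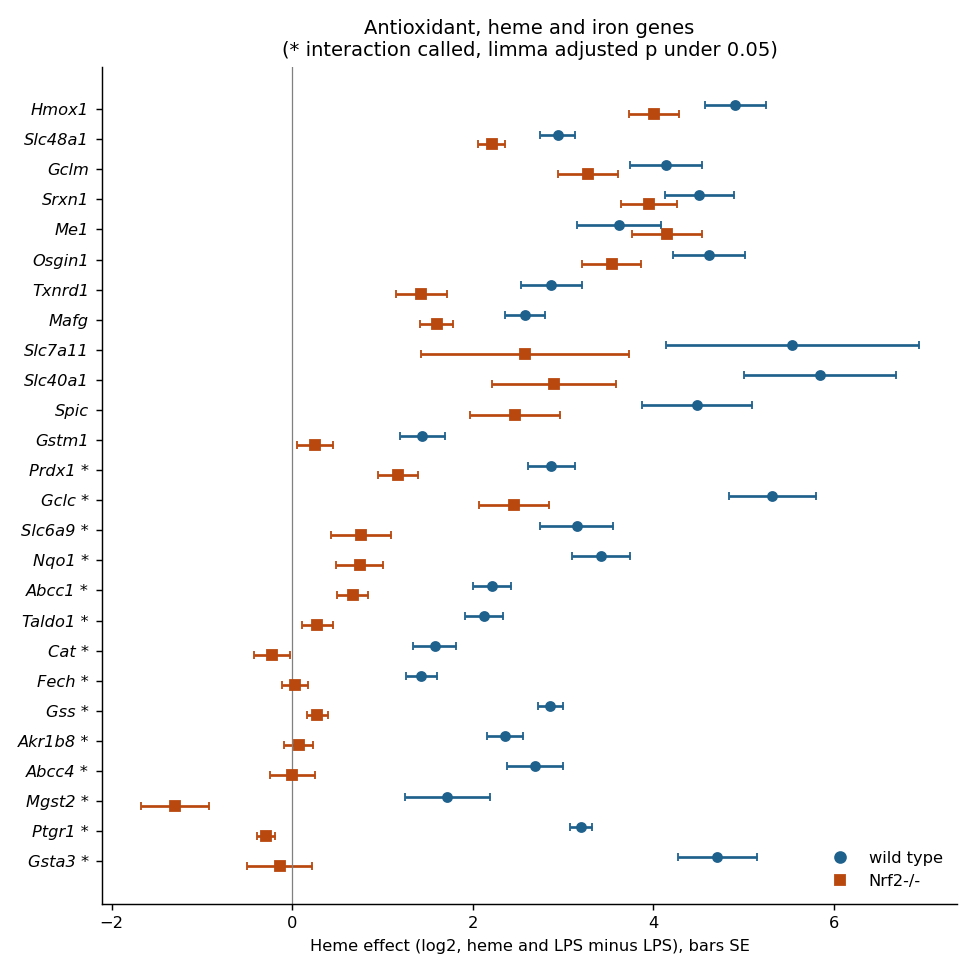
Heme effects (log2) in wild type (blue circles) and in the knockout (orange squares) are shown with SE for 26 antioxidant, heme and iron genes, and an asterisk marks a called interaction. Genes such as Gsta3, Ptgr1, Abcc4 and Gss sit near 0 in the knockout, while Hmox1, Slc48a1, Gclm, Srxn1 and Me1 keep effects of 2.21 to 4.15 there.

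NRF2 binds with its small MAF partner to the antioxidant response element, whose core was searched here as TGACNNNGC on both strands of the 250 bases before to 50 after each RefSeq start (GRCm38.p6). The core was found for 2579 of 17162 measured genes with a promoter in the table (15%). It was found for 30 of 128 called lower (23.4%), for 6 of 41 called higher (14.6%) and for 11 of 58 of the genes that stayed called without each array (19.0%). A gene may have several starts, and counted by promoter the shares were 13.2%, 23.6%, 11.1% and 21.2%. The related element TGANTCA, which can overlap the core, was present for 8.24% of all genes, 12.5% of those called lower, 9.76% of those called higher and 8.62% of the 58 that stayed called. A match is a description of letters and not a binding site, and binding was not measured. The 250 bases before the start, from RefSeq GRCm38.p6, are shown for 4 genes called lower whose windows hold the core, 5′ to 3′ on the gene's strand, with the core in capitals (reversed where it lies on the other strand). They are Gsta3 at chr1:21240335-21240584 (plus strand), Tbcel at chr9:42461429-42461678 (minus strand), Abcc4 at chr14:118676932-118677181 (minus strand) and Prdx1 at chr4:116685349-116685598 (plus strand).
Gsta3: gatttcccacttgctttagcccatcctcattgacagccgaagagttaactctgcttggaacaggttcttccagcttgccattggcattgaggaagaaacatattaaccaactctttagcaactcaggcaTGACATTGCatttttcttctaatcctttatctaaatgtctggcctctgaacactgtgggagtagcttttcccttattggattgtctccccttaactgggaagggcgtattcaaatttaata
Tbcel: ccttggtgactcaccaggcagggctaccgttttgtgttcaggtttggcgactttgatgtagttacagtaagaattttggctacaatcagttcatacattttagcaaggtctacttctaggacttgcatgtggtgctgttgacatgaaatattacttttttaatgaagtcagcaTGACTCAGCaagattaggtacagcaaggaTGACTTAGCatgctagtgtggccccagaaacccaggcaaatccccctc
Abcc4: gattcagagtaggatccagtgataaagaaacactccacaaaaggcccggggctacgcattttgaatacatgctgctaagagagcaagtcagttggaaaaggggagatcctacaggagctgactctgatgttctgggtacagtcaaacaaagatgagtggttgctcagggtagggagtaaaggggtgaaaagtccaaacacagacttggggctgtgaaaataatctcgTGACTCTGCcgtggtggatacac
Prdx1: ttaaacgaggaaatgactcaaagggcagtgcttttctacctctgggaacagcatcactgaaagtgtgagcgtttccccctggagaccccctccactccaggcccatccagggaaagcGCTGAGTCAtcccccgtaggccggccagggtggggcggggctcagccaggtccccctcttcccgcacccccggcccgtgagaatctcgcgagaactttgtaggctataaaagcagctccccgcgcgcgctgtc

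In the windows shown, the cores lay 121 bases before the start in Gsta3, 77 and 48 in Tbcel, 23 in Abcc4 and 133 in Prdx1. Windows of other starts held further cores, at 209, 26 and 32 bases in Tbcel and at 25 in Abcc4. A core (TGACTTTGC) also lay 194 bases before the start of Edn1, the called gene with the highest interaction. In Tbcel and Prdx1 the core TGACTCAGC also holds TGANTCA. The interactions of the genes whose windows are shown ran from -4.84 for Gsta3 to -1.70 for Prdx1, and that of Edn1 was 4.5.

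Heme breakdown and iron export are the direct answer of a macrophage to heme. Of 14 genes of heme breakdown and transport, 2 were called lower and 1 higher (median -0.28). Of 19 iron genes limma called 0 (median 0.13), and 3 had an unadjusted p under 0.05, beside 1779 of all 22485 genes. Hmox1, the inducible heme oxygenase that opens the heme ring, stood at -1.12, -0.51 and -0.51 in wild type under LPS and at 4.47, 3.85 and 4.28 under heme. In the knockout it stood at -1.44, -1.52, -1.12 and -1.56 under LPS and at 3.52, 2.97, 2.23, 2.54 and 1.73 under heme. Heme raised it strongly in both, by 4.91 and 4.01, and the interaction of -0.90 was not called (95% interval -1.85 to 0.05, limma adjusted p = 0.674). All 5 knockout heme arrays were nonetheless below the 3 wild-type heme arrays.

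Slc48a1, which moves heme out of the phagosome, rose by 2.94 and 2.21 (interaction -0.73, 95% interval -1.26 to -0.21, limma adjusted p = 0.281). The iron exporter gene Slc40a1 stood at 0.56, 3.68 and 3.19 in wild type under heme and at -2.16, 0.76, -0.64, -1.14 and -1.21 in the knockout. These groups overlapped, and the interaction of -2.95 ± 1.08 was not called (limma adjusted p = 0.373). Spic, a transcription factor of iron-recycling macrophages, rose by 4.49 and 2.47, with an interaction of -2.02 (limma adjusted p = 0.453).

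The called genes of the list were Fech, Pgrmc1 and Hmox2. Fech, ferrochelatase, inserts iron into protoporphyrin to make heme. It stood at 0.26, 0.98 and 0.89 in wild type under heme and at -0.71 to -0.52 in the knockout under heme, with no overlap (interaction -1.39 ± 0.22, limma adjusted p = 0.00678). Pgrmc1, a heme-binding membrane protein gene, had -1.03 ± 0.15 (limma adjusted p = 0.00316). Hmox2, the constitutive heme oxygenase, fell in both genotypes, by 1.42 and 0.64, and its interaction of 0.78 ± 0.17 (limma adjusted p = 0.0442) held in 3 of 15 fits without 1 array and was lost without the arrays lettered a (limma adjusted p = 0.193).

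In the other direction stood the 54 genes called higher, each with a heme effect below 0 in wild type. Edn1, the gene of the vasoconstrictor endothelin-1, had the highest interaction of the called genes. It stood at 7.66, 7.17 and 7.19 in wild type under LPS and at 1.23, 3.84 and 3.43 under heme. Its knockout values were 7.74, 7.16, 7.23 and 8.08 under LPS and 6.75, 6.99, 7.68, 8.21 and 8.13 under heme. Heme lowered it in wild type by 4.50, while the knockout groups overlapped with a difference of 0.00 (interaction 4.50 ± 0.72, limma adjusted p = 0.00622). Its 10 probes gave interactions of 3.68 to 5.61. Among endothelin, coagulation and matrix genes 1 of 20 was called lower, the receptor Ednrb, and 2 higher, Edn1 and Fgl2 (median 0.31).

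Of the called genes, 21 with a positive interaction stayed called without each array and without the arrays lettered a. Rin2, a Rab5 exchange factor gene, had the smallest limma adjusted p of them. It stood at 1.97, 2.02 and 1.96 in wild type under LPS and at -2.59, -2.91 and -2.95 under heme. The knockout arrays stood at 2.12, 2.02, 2.30 and 2.34 under LPS and at 0.18, -0.17, 0.29, 0.36 and 0.37 under heme. Heme lowered it in both genotypes, by 4.80 and 1.99, and the 4 groups separated into 3 levels (interaction 2.81 ± 0.17, limma adjusted p = 1.94e-06).

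Cd83, an activation antigen of dendritic cells and macrophages, fell by 4.08 in wild type and by 1.16 in the knockout (interaction 2.92 ± 0.28, limma adjusted p = 0.000124). Themis2, a signalling adapter of macrophages and B cells, fell by 5.21 and 1.74 (3.47 ± 0.44, limma adjusted p = 0.00137). Ikzf1, the Ikaros transcription factor gene, fell by 3.5 and 0.94 (2.56 ± 0.38, limma adjusted p = 0.00421). These genes kept a called but smaller fall in the knockout.

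Cx3cl1, the gene of the chemokine fractalkine, fell in wild type by 3.12, and its difference of 0.33 in the knockout was not called. In wild type it stood at 4.19, 4.24 and 4.09 under LPS and at 1.0, 0.83 and 1.35 under heme, and at 4.2, 5.29, 4.42 and 5.13 and at 4.00, 4.75, 5.10, 5.73 and 5.84 in the knockout. The knockout groups overlapped, and the interaction was 3.44 ± 0.51 (limma adjusted p = 0.00409). Dusp2, a phosphatase that switches off MAP kinases, fell by 2.84 in wild type and differed by -0.26 in the knockout (2.57 ± 0.32, limma adjusted p = 0.00113). Hcar2, the niacin receptor gene, fell by 2.40 and differed by 0.28 (2.69 ± 0.46, limma adjusted p = 0.0107).

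**Figure D4:**
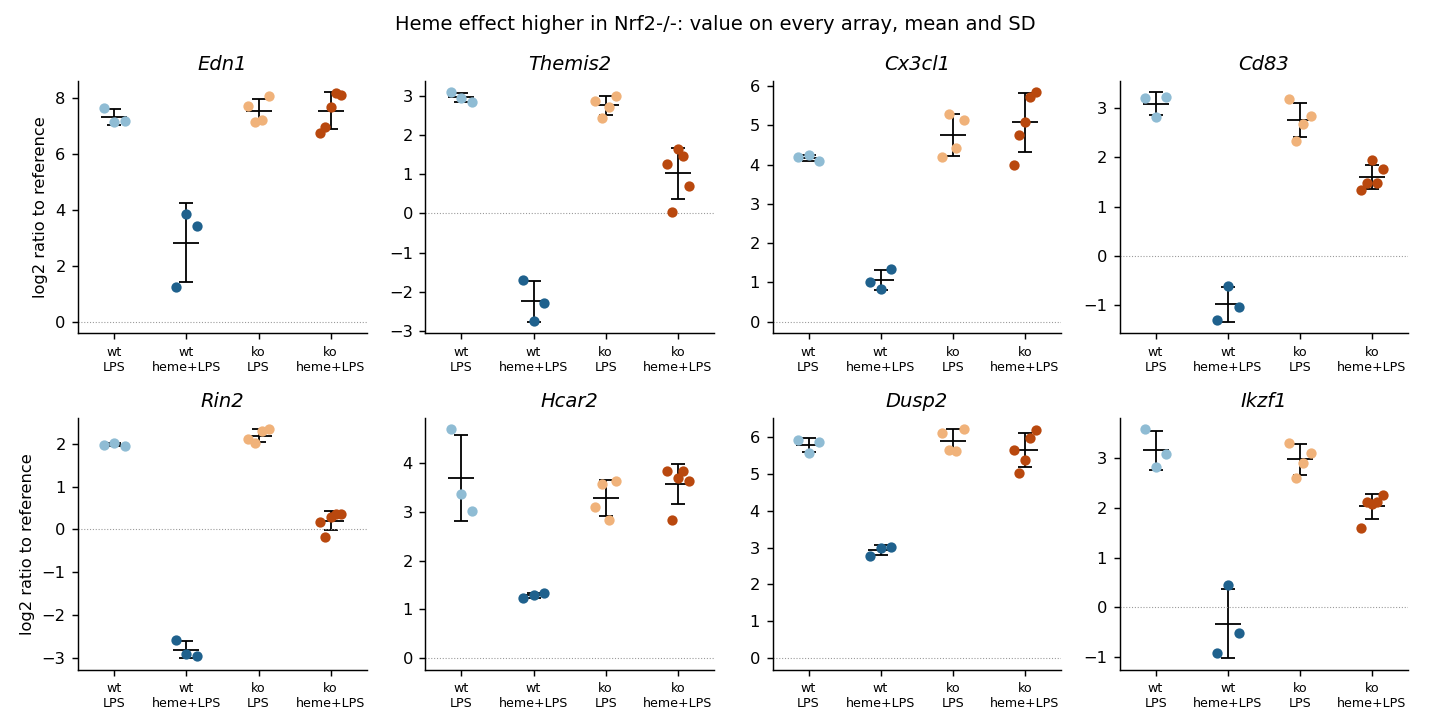
Log2 ratios to the reference are shown on every array (points) with mean and SD (bars) for the 8 genes with the most positive interactions among those called in every fit without 1 array, leaving out symbols of predicted transcripts (Gm6377, 3.00); wt is wild type and ko is Nrf2-/-. In each gene the 3 wild-type heme arrays lie below the 5 knockout heme arrays, for example -2.95 to -2.59 for Rin2 against -0.17 to 0.37.

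Further called genes were less certain. Fgl2, a membrane prothrombinase gene, fell by 7.05 in wild type, the largest fall of the called genes, and by 3.31 in the knockout (3.74 ± 0.70, limma adjusted p = 0.0187; called in 12 of 15 fits without 1 array). Lipg, endothelial lipase, had 4.18 ± 0.84, but it was listed at exactly 0 on all 3 wild-type heme arrays and the call held in 5 of 15 such fits. Gpr34, a receptor for lysophosphatidylserine, had 3.62 ± 0.73 and was called in 9 of 15. Nos2, the inducible nitric oxide synthase, stood at 2.13, 1.30 and 1.70 in wild type under heme and at 5.28, 3.71, 4.85, 6.01 and 4.98 in the knockout. Its interaction of 2.96 ± 0.53 (limma adjusted p = 0.0144) held without any 1 array and was lost without the arrays lettered a (limma adjusted p = 0.0851).

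Inflammatory genes as lists moved less clearly. Of 24 pro-inflammatory cytokines and enzymes, 1 was called lower (Il1f9, interleukin-36 gamma, -3.34, called in 11 of 15 fits without 1 array) and 1 higher (Nos2), with a median of 0.59. At an unadjusted p under 0.05 there were 1 lower and 6 higher, beside 1045 lower and 734 higher of all 22485 genes. In the list 4 were called higher without knockout heme array b, 2 without wild-type heme array c and 5 with array weights. The median was 1.09 without wild-type heme array c and 0.41 to 0.78 without any other array. Tnf had an interaction of -0.02 (95% interval -0.61 to 0.58) and Il1b of 0.30 (-0.43 to 1.04), so a difference of 2-fold or more in Tnf lies outside its interval. Il12b, a subunit of interleukin-12, stood at 2.09, 6.0 and 6.07 in wild type under heme and at 7.09, 8.30, 9.09, 9.46 and 9.60 in the knockout, without overlap. Its interaction of 3.38 ± 1.1 was not called (limma adjusted p = 0.26; 0.0437 without the arrays lettered a). Il10, an anti-inflammatory cytokine gene, fell by 2.58 and 1.30 (interaction 1.28, limma adjusted p = 0.352), and 0 of 22 anti-inflammatory genes were called lower and 1 higher. Of 19 chemokines 1 was called lower (Cxcl5) and 1 higher (Ccl9), with a median of 0.85 (0.47 to 1.21 without 1 array, the lowest without knockout LPS array c). At an unadjusted p under 0.05 there were 1 lower and 8 higher, and 6 were called higher without wild-type heme array a, 2 without knockout heme array b and 5 with array weights. Of 23 NF-kB genes 0 were called lower and 1 higher, Dusp2 (median 0.61).

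The type I interferon genes had the highest median of the 29 lists, 1.93, and limma called 0 of its 34 genes. All 34 interactions were positive, from 0.42 to 3.55, and 16 had an unadjusted p under 0.05, beside 1779 of all 22485 genes. Heme lowered 32 of the 34 in wild type and 0 in the knockout by the limma call, but a call in 1 genotype and not in the other is no test of the difference. The median of the list was 4.43, 3.68 and 3.52 on the wild-type LPS arrays and 2.09, -0.86 and 0.02 on the wild-type heme arrays. It was 4.14, 3.46, 3.33 and 4.36 on the knockout LPS arrays and 3.25, 1.09, 2.17, 3.48 and 3.20 on the knockout heme arrays. Wild-type heme array a therefore lay within the range of the knockout heme arrays, and knockout heme array b was the lowest of its group. Without wild-type heme array a, 12 of the 34 were called higher (median 2.76), and without wild-type heme array b none was and the median was 1.30. Without the arrays lettered a 2 were called (median 2.47). With array weights 12 were called higher (median 2.27), and with the replicate block 1 was. Ifnb1, interferon beta itself, stood at 4.76, 3.12 and 3.68 in wild type under heme and at 8.10, 8.11, 8.00, 8.68 and 8.82 in the knockout, with an interaction of 3.55 ± 0.96 (limma adjusted p = 0.127). Cxcl10, an interferon-induced chemokine, had 3.14 ± 1.61 (limma adjusted p = 0.708), and its wild-type heme array a at 9.86 stood far from the other wild-type heme arrays at 4.18 and 4.2.

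Only 4 genes were called in opposite directions by heme in the 2 genotypes, and in each the interaction was called too. D16Ertd472e rose by 1.56 in wild type and fell by 0.56 in the knockout (interaction -2.12 ± 0.22, limma adjusted p = 0.000279). Nck2, an adapter of actin signalling, rose by 0.95 and fell by 0.95 (-1.90 ± 0.37). Ccl9, a macrophage chemokine gene, fell by 0.68 in wild type and rose by 0.64 in the knockout. It stood at 1.42, 0.95 and 1.15 in wild type under heme and at 2.38, 2.31, 2.30, 2.90 and 2.59 in the knockout (1.32 ± 0.23, limma adjusted p = 0.0121). Cd300e, an activating receptor of monocytes, fell by 1.11 and rose by 0.66 (1.76 ± 0.24, limma adjusted p = 0.00225). Such reversals were rare beside the 781 genes raised and the 498 lowered in both genotypes. As an example of a fall that did not differ by much, Ddx4, an RNA helicase gene of germ cells, fell by 4.81 and 4.39 (interaction 0.42, 95% interval -0.67 to 1.5). It was chosen for its small interaction among genes with large called effects in both genotypes, so its likeness follows from the choice.

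The remaining lists held few called genes. Of 17 genes of LXR and lipid handling 1 was called lower, Mylip (-2.01), and 1 higher, Nr1h3, which encodes LXR alpha (1.78, called in 6 of 15 fits without 1 array). Of 26 integrated stress response genes 1 was called lower, Slc6a9 (median -0.35). That median was 0.34 without wild-type heme array a, -0.05 without all arrays lettered a and 0.04 with array weights. Macrophage identity genes had 1 of 21 called, the transcription factor Maf (1.47, with probes at 0.45 and 2.49), and the lineage factor Cebpa had -2.53 (limma adjusted p = 0.23). Cholesterol synthesis and uptake had 0 of 16 called by limma (1 at an unadjusted p under 0.05), with all 16 interactions positive (median 0.53). For the other 10 lists limma called 0 members, and the count at an unadjusted p under 0.05 is given after the median. Over all 22485 genes this count was 1779. These were heat shock genes (16 measured, median -0.45, 2 unadjusted), glycolysis and hypoxia genes (22, -0.25, 6) and lysosome genes (17, -0.02, 0). Scavenger receptors had a median of 0.07 (21 measured, 3 unadjusted), metallothioneins of 0.23 (9, 2) and p53 targets of 0.33 (18, 5). The immune list of Toll-like receptors had a median of 0.40 (20 measured, 8 unadjusted, of them 1 lower and 7 higher). Those of MHC class II (13, 0.43, 0) and MHC class I (17, 0.46, 4) and the cell cycle list (27, 0.47, 1) had similar medians. Without wild-type heme array a the median of the heat shock genes was -0.01, and that of the scavenger receptors was -0.08. The median of the metallothioneins ran from -0.25 (without wild-type LPS array a) to 0.33, and that of the lysosome genes from -0.22 to 0.16, so the sign of both changed with single arrays.

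**Figure D5:**
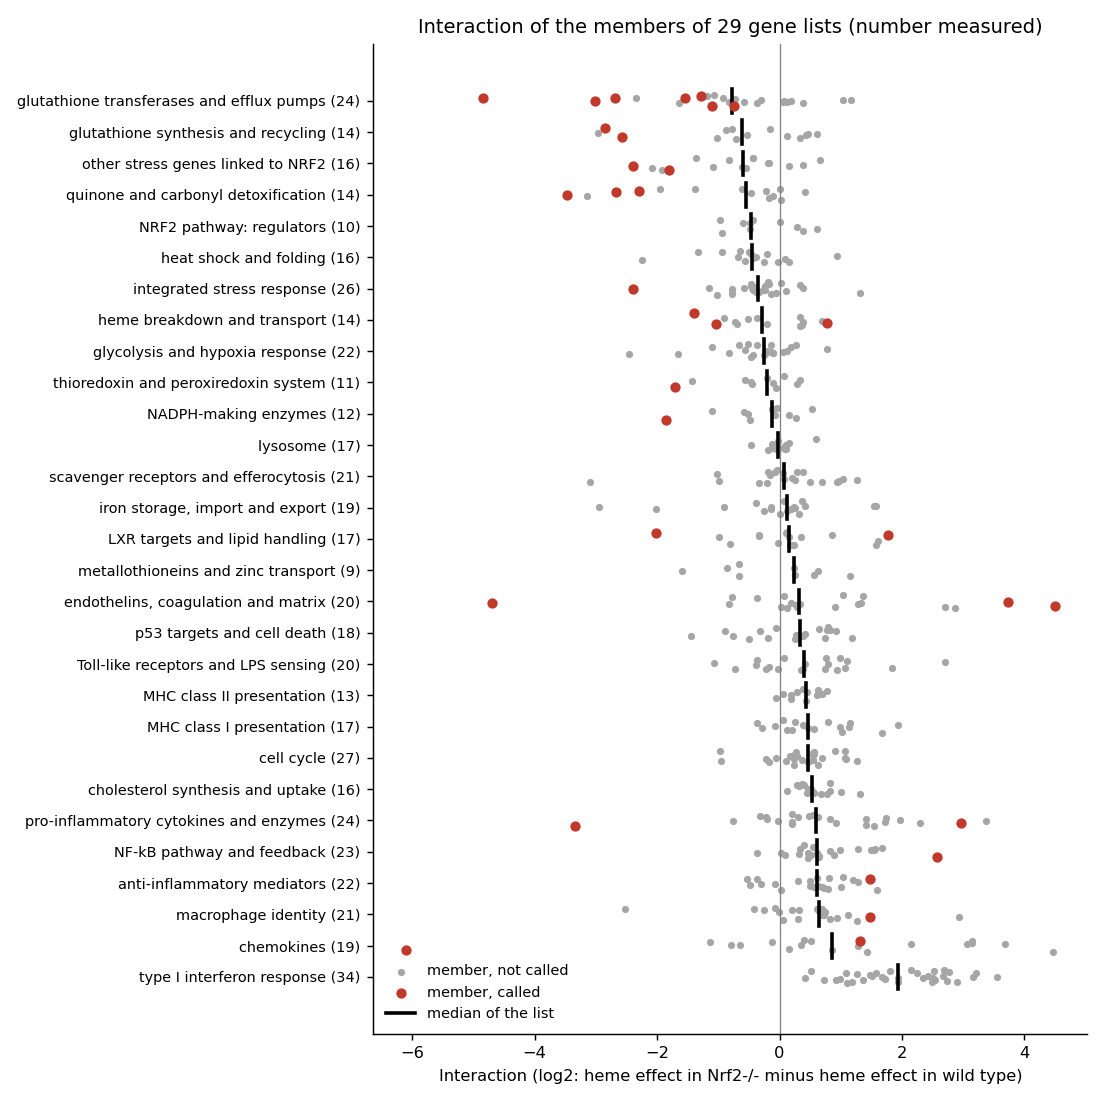
Each point is the interaction (log2) of a measured member of 1 of 29 gene lists, red where called, with the list's median as a bar and the lists ordered by median. Glutathione transferases and efflux pumps lie at the top with a median of -0.78 and 7 called members, and type I interferon genes at the bottom with 1.93 and none.

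A gene outside the call is not shown to respond alike in both genotypes. The median half-width of the 95% interval of the interaction was 0.71 log2 units. Of 15810 genes not at 0 on at least 8 of the 15 arrays, 7344 (46.5%) had an interval within 1 log2 unit either side of 0.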

How the data were processed

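The authors deposited 1 table of log10 ratios, sample (Cy5) over untreated reference (Cy3), made with Agilent Feature Extraction 10.5.1.1 per the submitters' processing notes. The log10 scale was inferred from the format and the range of the values (-2.146 to 3.594). The correction of background and dyes and the reference's genotype are unstated in those notes and labels. Among 44397 features, 33026 carried 1 gene symbol and 11371 none, and 32438 were matched to the gene table by identifier. Conversion to log2 and averaging over probes gave 22485 genes, 16347 with 1 probe and 729 at exactly 0 on all 15 arrays.

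Group means were fitted with limma 3.58.1 in R 4.3.3 (lmFit, eBayes) over all 18 arrays. The 3 wild-type albumin arrays enter no comparison and add to the estimate of the spread only. The calls depend on them, since 116 genes were called without them and 213 with them. Tests were two-sided and adjusted by Benjamini-Hochberg, and the p-values measure the spread between these samples, the albumin arrays included. The code was first tested on simulated data. Named genes were first a preset list of 26, of which G6pdx was not measured. It held NRF2 pathway, heme and iron genes, inflammatory genes, Edn1 and Cxcl5. Added were the 12 lowest and 12 highest called interactions and the 8 lowest and 8 highest among genes called in every fit without 1 array. Up to 4 called and 2 uncalled members per list and genes with opposite or like heme effects completed them. Symbols of predicted transcripts were left out of the lowest and highest. The comparison, the gene lists and the rule were chosen with earlier results of these data known. Alternatives changed the normalization, centring, zeros, probe summary, filter, array weights, arrays and replicate block.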

Additional observations from a re-analysis of the deposited data

Results flagged for a closer look

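The heme effect differed between the genotypes, by the limma interaction, in 159 genes that were lower and 54 that were higher in the knockout. Of the 16 genes named among those called without each array in turn, the interactions below 0 were -5.66 for Rnf183, -5.56 for Fam13a, -4.84 for Gsta3, -4.70 for Ednrb, -4.00 for Lypd6b, -3.89 for Slc22a23, -3.74 for Tbcel and -3.58 for Pcx. Those above 0 were 4.50 for Edn1, 3.47 for Themis2, 3.44 for Cx3cl1, 2.92 for Cd83, 2.81 for Rin2, 2.69 for Hcar2, 2.57 for Dusp2 and 2.56 for Ikzf1.

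In 3 of 75 groups of 4 or 5 arrays examined, 1 array stood far from the rest of its group, and chance alone gives about 1 in 20. Lypd6b stood at -0.10 on the knockout LPS array c, Hcar2 at 2.84 on the knockout heme array b and Ikzf1 at 1.60 on the knockout heme array a. The interaction of each stayed called without that array.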

How the results depend on the processing

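Of the 129 named genes, 0 called ones changed the sign of the interaction under any alternative, and 6 uncalled ones did (Ccl5, Chac1, Epor, Il1b, Tnf and Top2a). With array weights 543 genes were called lower and 336 higher, and all 213 genes of the main result were among them. Without the albumin arrays 90 were lower and 26 higher, and 115 of the 213 stayed called. The 72 and 21 genes that stayed called without each array were not required to pass that fit. Without the LPS-treated arrays lettered a 201 were lower and 85 higher, with 146 shared. Leaving out 1 array gave 101 to 210 lower and 34 to 123 higher calls. The counts moved by over 1.5 times without wild-type LPS array b (101 and 34), wild-type heme array c (104 lower), wild-type heme array a (104 higher) and knockout heme array b (123 higher). Of all calls 74.6% were lower, against 61.8% with array weights and 61.9% without knockout heme array b. Quantile normalization (144 and 66), centring (152 and 57), the median over probes (160 and 56), zeros as missing (180 and 76), a filter on zeros (162 and 65) and a fit of each feature (176 and 61) stayed within 1.5 times. With the replicate letter as a block 154 were lower and 57 higher, with 162 of the 213 shared, and 7 called named genes were no longer past the threshold (Esam, Gclc, Lipg, Mgst2, Nr1h3, Prdx1 and Slc6a9). The main fit used no such block, although some same-letter arrays, above all those lettered a, deviated alike from their group means. By the correlation of these deviations, 14 of 19 same-letter pairs had r over 0.1 (range 0.012 to 0.586). Of 14 arrays, 6 correlated best with their own letter. The 6 pairs of letter a lay at 0.304 to 0.586 and the other letters at 0.012 to 0.448. Arrays lettered a against arrays of other letters gave -0.409 to -0.045. Letters d and e occurred in the knockout only, so a batch marked by them would lie in 1 genotype only. Knockout heme arrays d and e correlated with knockout LPS array d at 0.448 and 0.327. No fit left these arrays out together. Whether the letters mark a pairing or a batch was not tested. Across these settings the genes raised at least 4-fold in the knockout had a wild-type median of 3.15 to 3.76, and those raised in wild type a knockout median of 0.96 to 1.18. The cause of these shifts was not tested. The number of arrays limits the precision.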

Other observations

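Enzymes of central metabolism were also among the genes called lower in the knockout. They were chosen after their values were seen, form none of the gene lists, and carry no test as a group. Gfpt2, which opens hexosamine synthesis, rose by 3.18 in wild type and differed by -0.02 in the knockout (interaction -3.20 ± 0.24, limma adjusted p = 1.24e-05). The glycogen branching enzyme gene Gbe1 had -2.62 ± 0.23 (limma adjusted p = 5.86e-05), and Ugp2, which makes the UDP-glucose for glycogen, had -0.75 ± 0.11 (limma adjusted p = 0.00423). Acss2, which makes acetyl-CoA from acetate, had -2.0 ± 0.23, the mitochondrial NAD kinase gene Nadk2 -2.35 ± 0.42, glutamine synthetase Glul -2.13 ± 0.41 and Ivd, of leucine breakdown, -1.64 ± 0.25. The knockout heme effects of these genes stood between -0.02 and 0.44, and that of Pcx was -0.28. Nadk2 and Glul did not stay called without each array.

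Other genes outside the lists with calls that held without each array were Panx1, a membrane channel that releases ATP (-3.17 ± 0.42), Pla2g7, the phospholipase that breaks down platelet-activating factor (-3.10 ± 0.46), and the platelet chemokine gene Ppbp (-3.46 ± 0.44). In the other direction stood Trim21, a cytosolic antibody receptor gene (2.07 ± 0.32), Klf7 (2.19 ± 0.34) and Anxa1, an anti-inflammatory annexin gene (1.19 ± 0.16). Under LPS alone the knockout differed from wild type by -0.09 for Gbe1, 0.05 for Gfpt2 and 0.27 for Panx1, none of them called.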
